A study of Homo sapiens with 8 samples.

Results

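The genes described here were 10 members of the base excision repair machinery around APE1, out of 58302 genes in the count table. PARP1, XRCC1, POLB, FEN1, LIG1, LIG3, PCNA and UNG are repair enzymes or their scaffolds, and NPM1 and YBX1 are proteins that bind APE1. The rule takes them by name, through the match of their Ensembl identifiers to GENCODE 44, and has no threshold on a measured value. The RNA came from A549, an established line of human lung adenocarcinoma cells. The 4 siAPEX1 libraries came from cells transiently transfected with an siRNA against APEX1, the gene of APE1, and the 4 siCTRL libraries from cells that received a scramble siRNA with the same reagent. The labels name no other treatment, and all cells were collected at a single time a few days after transfection. The study calls the libraries of a group biological replicas, but the labels do not say whether they came from separate cultures, so a p-value measures only the spread between these libraries, which may be technical.

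Base excision repair removes single damaged bases from DNA. A glycosylase such as UNG cuts the base away, APE1 nicks the abasic site that remains, and the gap is then filled and sealed either along a short patch, by POLB with XRCC1 and LIG3, or along a long patch, by replication enzymes that work with PCNA, FEN1 and LIG1. PARP1 senses the break in the strand and calls in XRCC1. APE1 also binds RNA and RNA-binding proteins, among them NPM1, which holds it in nucleoli, and YBX1, a cold shock protein with which it acts on transcription.

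Depth set what could be seen. The libraries held 1348386 to 1949886 counts in all, every siAPEX1 library was smaller than every siCTRL library, and the 10 genes together held only 225 to 423 counts per library. Of these counts 61.9% belonged to NPM1. APEX1 itself had 51, 61, 64 and 47 counts in siCTRL and 21150, 19470, 27916 and 20767 in siAPEX1, against the label of silenced cells. The paper reports that the siRNA lowered APE1 at the protein level in A549 cells, with a representative Western blot. It does not say whether the blotted extracts and the sequenced RNA came from the same cultures. Counts per gene do not separate the transcript from the transfected siRNA and cannot serve as a measure of silencing. Each direction below is that of the libraries labelled siAPEX1 against those labelled siCTRL. On the second principal component of log2 CPM (counts per 1000000) over 1000 genes, siAPEX1 replicate 2 lay at 22.7 while the other 7 libraries lay between −10.1 and 0.945. Keratin genes of epithelial cells were present in all libraries, though KRT8, KRT18 and KRT19 were lower in siAPEX1 (log2 fold changes −1.01, −1.36 and −2.31) and CDH1 was higher (0.92). EPCAM, another epithelial marker, was below the filter, with 9, 8, 8 and 9 counts in siCTRL and 1, 0, 4 and 5 in siAPEX1. PTPRC, CD3E, PECAM1 and VWF, which mark blood cells and endothelium, had at most 1 count in any library. CD68, a marker of macrophages on the same list, had 2, 4, 5 and 3 counts in siCTRL and 1, 2, 1 and 1 in siAPEX1. The part of these marker differences in the results below was not tested, and in bulk RNA fewer cells of a type and less RNA per cell cannot be told apart.

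In the A549 libraries as labelled, XRCC1 was lower in siAPEX1, to 0.424 times its siCTRL level, and it was the single member called. The call rests on few counts. XRCC1 passed the filter on low counts through the siCTRL libraries alone and was not called by DESeq2 (adjusted p = 0.100), though it was called by edgeR with no filter (adjusted p = 0.00733). PARP1, LIG3, PCNA, NPM1 and YBX1 were tested and not called. POLB, FEN1, LIG1 and UNG had too few counts for the test. A call is an adjusted p of at most 0.05 from the quasi-likelihood test of edgeR, with TMM scaling and Benjamini-Hochberg adjustment over 5368 genes that passed that filter. So 1 of the 6 tested members was called, lower, and 0 higher (1, YBX1, at an unadjusted edgeR p of 0.0265), while 31.7% of all genes tested were called, 15.8% lower and 15.9% higher. The shares of all genes at an unadjusted p of at most 0.05 were not computed, but they are at least these. XRCC1 was also past an absolute log2 fold change of 1, and 9.28% of all genes tested were both called and past that fold. Since XRCC1 entered the test through the group in which it was higher, the count of 1 supports nothing by itself. The 6 log2 fold changes had a median of 0.11 against −0.0035 over all genes tested, with 3 below 0 and 3 above. With counts this close to the background no share is read as particular to these genes.

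**Figure D1:**
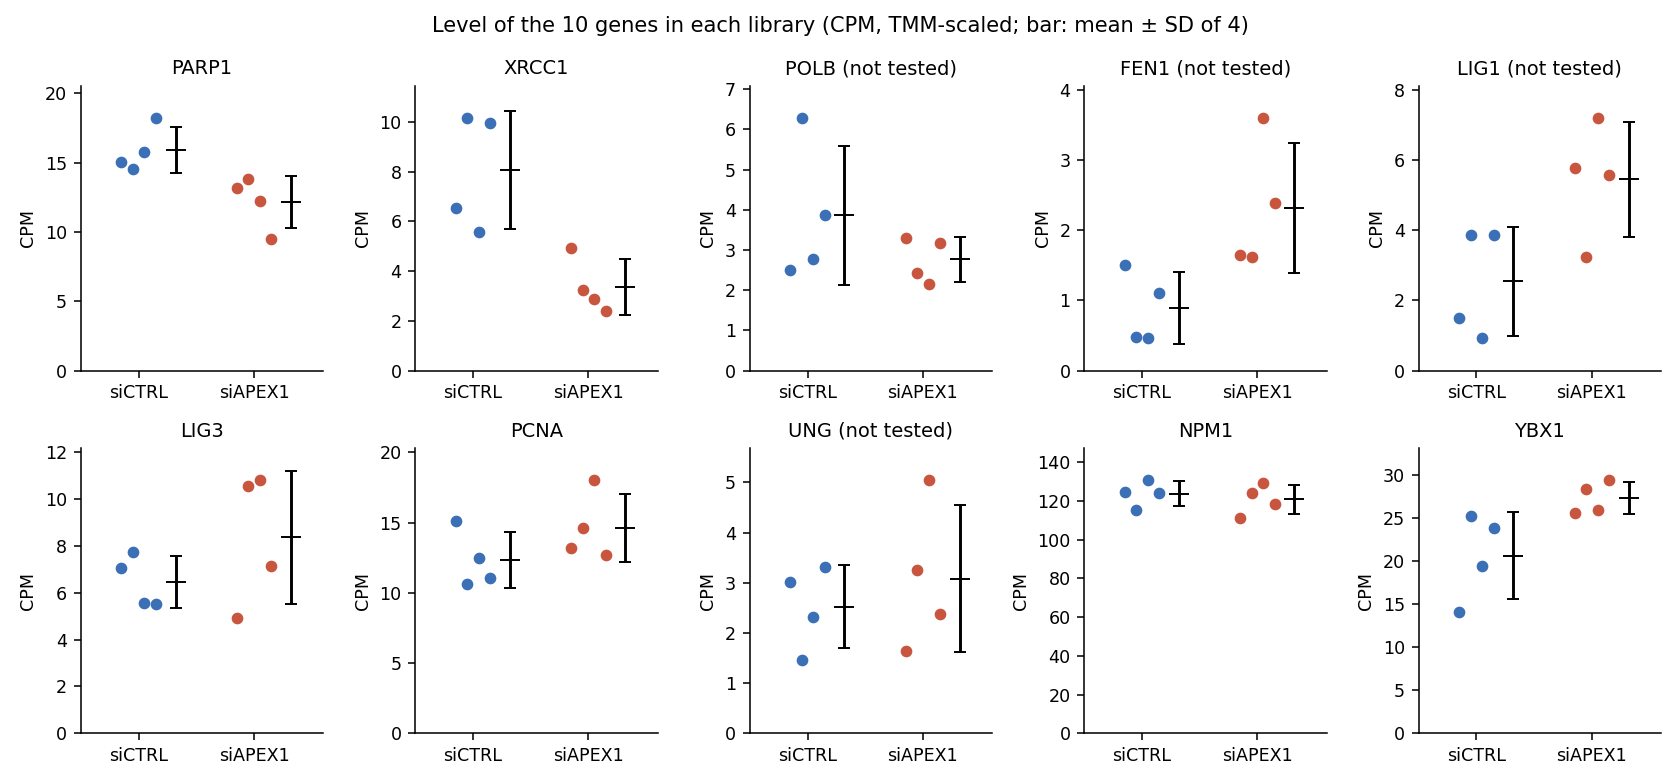
The 10 panels plot the level of each gene in CPM (vertical axis from 0) in the 4 siCTRL libraries (blue) and the 4 siAPEX1 libraries (red), with a bar for the mean ± SD of 4. XRCC1 and PARP1 lie lower in every siAPEX1 library than in any siCTRL library, YBX1 and FEN1 lie higher, and the groups of the other 6 genes overlap.

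The genes differed widely in level. CPM are counts scaled to the library's tested counts and its TMM factor, and CPM per kilobase divides them by the length of the canonical transcript so that genes can be set side by side. In siCTRL, NPM1 stood far above the rest at 93.7 ± 4.81 CPM per kilobase (SD, n = 4). PCNA followed at 9.66 ± 1.57, YBX1 at 6.93 ± 1.68 and PARP1 at 4.0 ± 0.414 CPM per kilobase. XRCC1 was next at 3.93 ± 1.147 and POLB at 3.0 ± 1.34, and the libraries of neighbours from PARP1 to POLB overlapped, as did those of PCNA and YBX1. The lowest levels were those of UNG at 1.23 ± 0.405, LIG1 at 0.815 ± 0.497, LIG3 at 0.772 ± 0.132 and FEN1 at 0.442 ± 0.252 CPM per kilobase, and these neighbours overlapped as well. NPM1, PCNA, YBX1 and PARP1 kept their places in siAPEX1, at 91.4 ± 5.84, 11.5 ± 1.88, 9.17 ± 0.63 and 3.06 ± 0.473 CPM per kilobase. XRCC1 stood at 1.64 ± 0.541 there, below POLB at 2.15 ± 0.430 and LIG1 at 1.74 ± 0.524, with overlapping libraries. The length is that of 1 annotated transcript, which need not be the form A549 cells make. The libraries came from a small RNA kit, and whether counts grow with transcript length in them was not tested. The order of genes by this measure is uncertain to that extent.

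XRCC1 (ENSG00000073050, GRCh38 chromosome 19 from 43543311 to 43580473, minus strand) encodes the scaffold that holds PARP1, POLB and LIG3 at a strand break. It had 13, 21, 12 and 18 counts in siCTRL replicates 1 to 4 and 6, 4, 4 and 3 counts in siAPEX1 replicates 1 to 4. Every siAPEX1 library lay below every siCTRL library, also in CPM. Its mean was 8.06 ± 2.35 CPM in siCTRL and 3.36 ± 1.11 CPM in siAPEX1 (SD, n = 4 each). The log2 fold change was −1.24 (standard error 0.361, 95% confidence interval −1.97 to −0.51, edgeR adjusted p = 0.00684). The filter asks for at least 6.14 CPM before TMM scaling in enough libraries, which all 4 siCTRL and 0 siAPEX1 libraries reached, and the lowest of the siCTRL libraries reached it with 6.15. With no filter the log2 fold change was −1.33 and the adjusted p 0.00733 over 22272 genes, of which 8.21% were called. DESeq2, which called 902 genes in all, put the log2 fold change at −1.28. Without siCTRL replicate 1, 2 or 4 in turn, XRCC1 fell below the filter and had no value. With no filter and each of the 8 libraries left out in turn, an alternative chosen after seeing the data, it was called in 8 of 8 fits, with log2 fold changes from −1.48 to −1.19 and edgeR adjusted p from 0.00340 to 0.0494. The lncRNA ENSG00000269583 on the opposite strand shares 17.6% of the exon bases of XRCC1 and had 0 counts in all libraries. The protein-coding gene ENSG00000268361 on the same strand shares 8.16% of them and had 0 counts as well. The counting keeps only reads that overlap a single gene, so reads of shared bases can be missing from the XRCC1 count.

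LIG3 (ENSG00000005156, GRCh38 chromosome 17 from 34980512 to 35009743, plus strand) encodes the ligase that seals the nick in complex with XRCC1. It had 14, 16, 12 and 10 counts in siCTRL and 6, 13, 15 and 9 in siAPEX1. The groups overlapped. At 6.47 ± 1.10 CPM in siCTRL and 8.36 ± 2.83 CPM in siAPEX1, its log2 fold change was 0.38 (standard error 0.296, 95% confidence interval −0.22 to 0.97, edgeR adjusted p = 0.359). The interval reaches from slightly lower to almost 0.97 higher on the log2 scale, so LIG3 is not shown to have stayed the same. RFFL on the opposite strand shares 29.1% of the exon bases of LIG3 and had 41 counts over the 8 libraries, and since the strand setting of the counting is not given in the sources used here, reads of the shared bases cannot be assigned to either gene with certainty.

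PARP1 (ENSG00000143799, GRCh38 chromosome 1 from 226360210 to 226408154, minus strand) encodes the enzyme that marks broken strands with poly(ADP-ribose). Its counts were 30, 30, 34 and 33 in siCTRL and 16, 17, 17 and 12 in siAPEX1. In CPM the means were 15.9 ± 1.65 and 12.2 ± 1.88, and every siAPEX1 library lay below every siCTRL library, as for 14.9% of all genes tested. The log2 fold change of −0.38 did not pass the test (standard error 0.214, 95% confidence interval −0.81 to 0.05, edgeR adjusted p = 0.185). Scaled by library size only, it was −0.72 with an edgeR adjusted p of 0.00564. That scaling shifted the median over all genes to −0.34, and 36.2% of all genes were then called lower. PARP1 was lower under all 17 alternatives run and called under this scaling alone.

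The stretches printed next lie upstream of the start sites of XRCC1, its ligase partner LIG3 and YBX1, to set the called member beside a tested member with overlapping groups and the tested member that was higher in every siAPEX1 library. Each run holds the 200 bases from 250 to 51 bases before the RefSeq start on the strand of the gene (RefSeq, GRCh38.p14), and capitals mark the GC box GGGCGG and the CCAAT box on either strand.
XRCC1, chr19:43575578-43575777, minus strand: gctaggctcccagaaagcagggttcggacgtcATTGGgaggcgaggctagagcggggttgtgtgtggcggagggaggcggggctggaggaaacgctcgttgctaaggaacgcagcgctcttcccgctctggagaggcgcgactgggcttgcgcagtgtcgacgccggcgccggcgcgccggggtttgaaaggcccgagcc
LIG3, chr17:34980262-34980461, plus strand: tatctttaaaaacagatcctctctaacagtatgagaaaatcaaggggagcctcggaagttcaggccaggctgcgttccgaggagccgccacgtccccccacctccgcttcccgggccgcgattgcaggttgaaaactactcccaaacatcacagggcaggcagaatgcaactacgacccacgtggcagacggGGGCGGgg
YBX1, chr1:42682168-42682367, plus strand: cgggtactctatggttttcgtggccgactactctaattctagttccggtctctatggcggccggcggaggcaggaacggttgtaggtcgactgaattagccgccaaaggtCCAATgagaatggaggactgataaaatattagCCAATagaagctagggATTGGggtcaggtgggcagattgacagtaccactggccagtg
The XRCC1 run held 1 CCAAT box, the LIG3 run 1 GC box and the YBX1 run 3 CCAAT boxes. No GC box overlapped a CCAAT box in these runs. In the whole 250 bases before the start, XRCC1, LIG3 and YBX1 each held 1 GC box. That of XRCC1 and that of YBX1 did not lie wholly within the printed run. Among the 9 members with an entry in RefSeq's table, 7 had a GC box and 5 a CCAAT box in the 250 bases before at least 1 start. Of all 35116 promoters in it, each counted singly, 42.6% held a GC box and 32% a CCAAT box in a window of the same length. A gene with several starts is counted by any of them, so these shares are not the same measure as the counts of members. A match of letters is a description and says nothing of what binds there.

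The repair polymerase and the long-patch enzymes were close to the limit of detection. POLB (ENSG00000070501, GRCh38 chromosome 8 from 42338454 to 42371808, plus strand), the polymerase that fills the short-patch gap, had 5, 13, 6 and 7 counts in siCTRL and 4, 3, 3 and 4 in siAPEX1. Its groups overlapped in CPM, at 3.87 ± 1.72 and 2.77 ± 0.554 (two-sided exact permutation p = 0.314). Summed over the libraries and scaled, siAPEX1 stood at 0.711 of siCTRL, with a 95% interval from 0.350 to 1.38 that covers counting error only.

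FEN1 (ENSG00000168496, GRCh38 chromosome 11 from 61792911 to 61797238, plus strand), the flap endonuclease of the long patch, had the fewest counts, with 3, 1, 1 and 2 in siCTRL and 2, 2, 5 and 3 in siAPEX1. A count of 3 in a library was taken as the floor, and only siAPEX1 replicate 3 exceeded it. In CPM every siAPEX1 library lay above every siCTRL library, at 2.31 ± 0.930 against 0.891 ± 0.509 (two-sided exact permutation p = 0.0286, the smallest that 4 against 4 allows). The raw counts overlapped. The ratio of the summed, scaled counts was 2.70 with a counting interval from 0.980 to 8.09, so the counts do not show a difference beyond counting error at this depth.

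LIG1 (ENSG00000105486, GRCh38 chromosome 19 from 48115445 to 48170603, minus strand), the ligase of replication and of the long patch, had 3, 8, 2 and 7 counts in siCTRL and 7, 4, 10 and 7 in siAPEX1. The groups overlapped, at 2.55 ± 1.55 and 5.44 ± 1.64 CPM (two-sided exact permutation p = 0.0857). Its summed, scaled counts were 2.20 times those of siCTRL, with a counting interval from 1.20 to 4.13 that leaves out the spread between libraries. In the fit with no filter LIG1 was not called (log2 fold change 1.02, edgeR adjusted p = 0.150).

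PCNA (ENSG00000132646, GRCh38 chromosome 20 from 5114953 to 5126626, minus strand), the sliding clamp that holds polymerases, FEN1 and LIG1 on DNA, had 30, 22, 27 and 20 counts in siCTRL and 16, 18, 25 and 16 in siAPEX1. The groups overlapped, at 12.3 ± 2.0 and 14.6 ± 2.40 CPM. Its log2 fold change of 0.25 did not pass the test (standard error 0.219, 95% confidence interval −0.19 to 0.69, edgeR adjusted p = 0.413), and it turned to −0.089 with library size only.

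UNG (ENSG00000076248, GRCh38 chromosome 12 from 109097597 to 109126725, plus strand), the glycosylase that removes uracil, had 6, 3, 5 and 6 counts in siCTRL and 2, 4, 7 and 3 in siAPEX1. The groups overlapped at 2.53 ± 0.830 and 3.08 ± 1.46 CPM (two-sided exact permutation p = 0.543). The ratio of its summed, scaled counts was 1.26, with a counting interval from 0.610 to 2.56, which holds both lower and higher levels.

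NPM1 (ENSG00000181163, GRCh38 chromosome 5 from 171387116 to 171411810, plus strand), the nucleolar chaperone that binds APE1, was measured best. It had 248, 238, 282 and 224 counts in siCTRL and 135, 153, 179 and 149 in siAPEX1. Scaled, the groups lay on top of each other, at 124 ± 6.35 and 121 ± 7.70 CPM. Its log2 fold change was −0.034 (standard error 0.0978, 95% confidence interval −0.23 to 0.16, edgeR adjusted p = 0.831), so a change beyond 0.852 to 1.120 times the siCTRL level lies outside the interval. With library size only NPM1 was called lower, at −0.38 with an edgeR adjusted p of 0.00206. The table also holds 49 genes named as NPM1 pseudogenes, with 106 counts in all, 6.59% of the NPM1 count, and 77 of these counts lay in NPM1P27. Reads that map equally well to NPM1 and to a copy are not in these counts, and their number was not measured, so the NPM1 level is uncertain to that extent.

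YBX1 (ENSG00000065978, GRCh38 chromosome 1 from 42682418 to 42703805, plus strand) encodes the Y-box protein that binds RNA and DNA. Its counts were 28, 52, 42 and 43 in siCTRL and 31, 35, 36 and 37 in siAPEX1. In CPM it was at 20.6 ± 5.0 in siCTRL and 27.3 ± 1.88 in siAPEX1, and every siAPEX1 library lay above every siCTRL library. Groups that did not overlap, in either direction, were seen in 28.9% of all genes tested. The log2 fold change was 0.41 (standard error 0.176, 95% confidence interval 0.05 to 0.76), and the edgeR adjusted p of 0.0749 missed the threshold. Small choices moved YBX1 across it. It was called with TMM factors from protein-coding genes (0.45, edgeR adjusted p = 0.0469), without siCTRL replicate 2 (0.52, edgeR adjusted p = 0.0342) and without siCTRL replicate 4 (0.48, edgeR adjusted p = 0.0493). With library size only it stood at 0.065, and without siCTRL replicate 1, the library with the lowest level, at 0.26 (edgeR adjusted p = 0.269). The 10 YBX1 pseudogenes in the table held 13 counts, 4.28% of the YBX1 count.

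**Figure D2:**
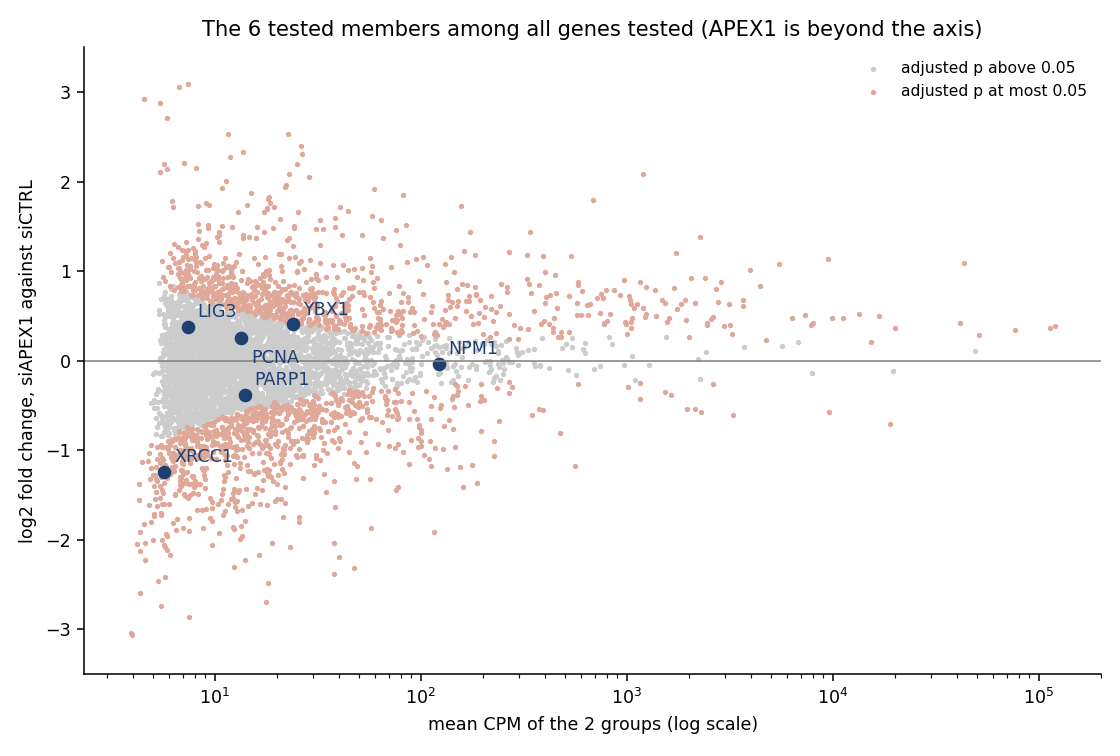
Each point is a gene tested, with its mean CPM over both groups on a log axis and its log2 fold change, siAPEX1 against siCTRL, on the vertical axis (pink, adjusted p at most 0.05; grey, above it); the 6 tested members are in dark blue. XRCC1 lies at the low end of the levels at −1.24, and NPM1, the most abundant member, lies at −0.034.

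The scale of the libraries weighed on all of these genes. Summed over the 10 members, siCTRL held 216 ± 6.77 counts per 1000000 and siAPEX1 174 ± 9.16 (SD, n = 4 each). Protein-coding genes of the nucleus, without APEX1, took 15.4% ± 0.296 of the counts in siCTRL and 12.2% ± 0.323 in siAPEX1. Relative to those protein-coding counts, a denominator chosen after seeing the data, the 10 members stood at 1405 ± 44.6 counts per 1000000 in siCTRL and 1426 ± 96.9 in siAPEX1. The members other than NPM1 stood at 523 ± 62.6 and 566 ± 44.6 counts per 1000000 on that scale. Against all counts the members other than NPM1 stood at 80.4 ± 8.64 and 69.1 ± 4.69 counts per 1000000. The sum of the 10 was thus lower against all counts in every siAPEX1 library, while the groups overlapped without NPM1 and, with or without it, against protein-coding counts. XRCC1 and PARP1 were lower in every siAPEX1 library whether scaled by protein-coding counts, by library size only or by TMM factors. With library size only NPM1 was lower in every siAPEX1 library as well, and 36.2% of all genes tested were called lower. YBX1 and FEN1 were higher in every siAPEX1 library with protein-coding counts and TMM factors, but their groups overlapped with library size only. Under TMM scaling 28.9% of all genes tested did not overlap, 14.9% of them all with siAPEX1 lower. The share without overlap was not computed for the other scalings, so those add no weight to XRCC1 or PARP1.

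Ratios of the raw counts of genes in the same library need no scaling, and 6 were computed, chosen after seeing the data. NPM1 was set against NCL and RPLP0, which encode the nucleolar protein nucleolin and a ribosomal protein and which also bind APE1. The NPM1/NCL ratio was 0.919, 0.919, 0.931 and 0.824 in siCTRL and 1.36, 1.39, 1.26 and 1.52 in siAPEX1, without overlap (two-sided exact permutation p = 0.0286, the smallest possible, 0.114 after Benjamini-Hochberg adjustment over the 6 ratios). The NPM1/RPLP0 ratio was 0.318 ± 0.00818 and 0.324 ± 0.00811 (exact permutation p = 0.400, adjusted 0.400). The NPM1/NCL ratio restates the values of the single genes, since NCL was called lower and NPM1 was not, and it is no separate evidence. The NPM1/RPLP0 ratio differed by less than the spread between libraries.

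XRCC1/PARP1 was 0.508 ± 0.150 in siCTRL and 0.274 ± 0.0678 in siAPEX1 (exact permutation p = 0.0571, adjusted 0.114). XRCC1/LIG3 was 1.26 ± 0.397 and 0.477 ± 0.350 (exact permutation p = 0.0857, adjusted 0.129), with siAPEX1 replicate 1 at 1.0 inside the siCTRL range. YBX1/NPM1 was 0.168 ± 0.0466 and 0.227 ± 0.0194 (exact permutation p = 0.0571, adjusted 0.114). These ratios and that of LIG1 to LIG3 overlapped between the groups, and none of the 6 passed 0.05 after adjustment. With 4 libraries against 4 that could have happened only if at least 4 of the 6 ratios had reached the smallest p.

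**Figure D3:**
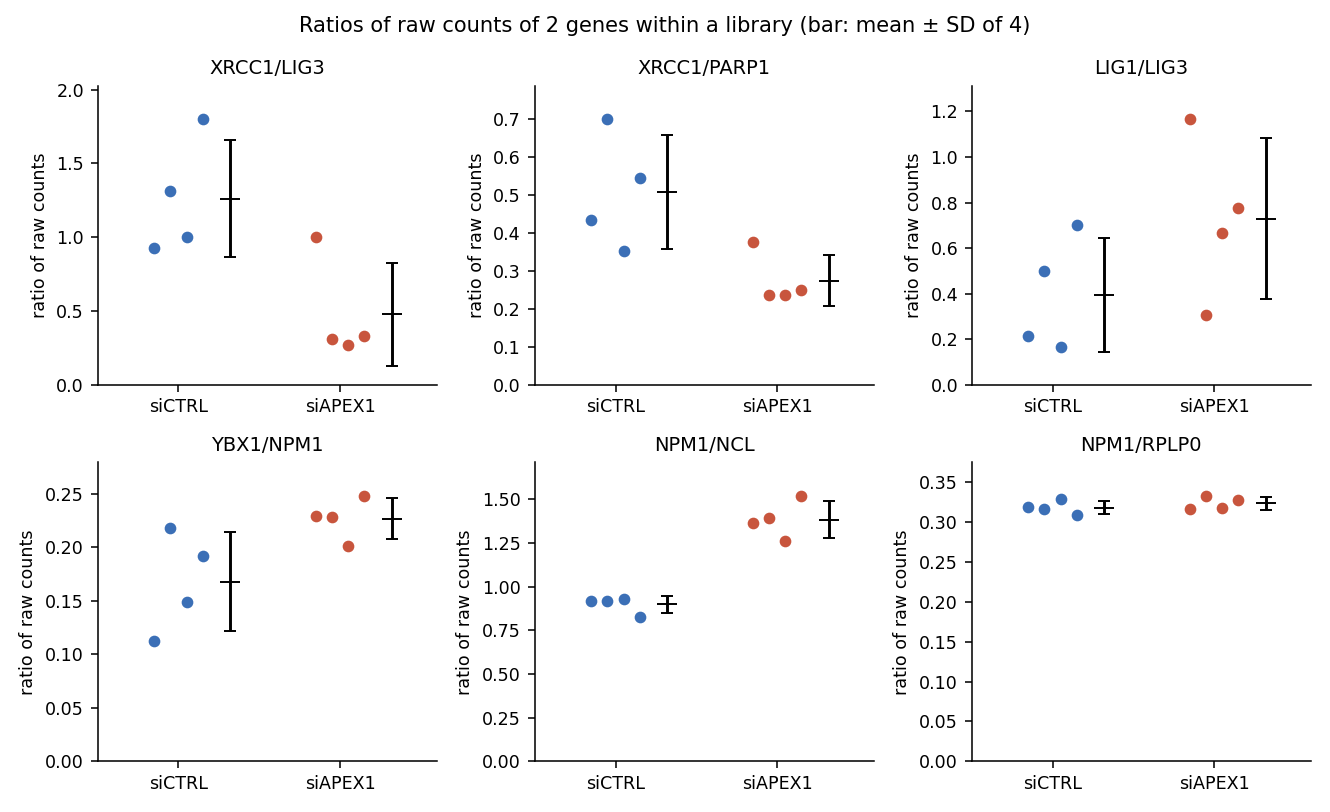
The 6 panels plot the ratio of the raw counts of 2 genes in each siCTRL (blue) and siAPEX1 library (red), on axes from 0, with the mean ± SD of 4. NPM1/NCL lies between 0.824 and 0.931 in siCTRL and between 1.26 and 1.52 in siAPEX1, whereas the groups overlap in the other 5 panels.

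The rest of the pathway was mostly too rare to test. Of 10 other DNA glycosylases 3 passed the filter and 0 were called, though MUTYH and NEIL3, described further on, were called in the fit with no filter. MBD4, which acts on thymine and uracil opposite guanine and had the most counts of the 3, had a log2 fold change of 0.080 (edgeR adjusted p = 0.869). Of 10 other genes of end processing and strand break repair 3 were tested and 0 called. Their most abundant, HMGB1, a chromatin protein that takes part in base excision repair, stood at 0.19 (edgeR adjusted p = 0.501). Of 17 long-patch and replication partners 4 were tested and 0 called, and RFC1, the large subunit of the clamp loader of PCNA, stood at −0.22 (edgeR adjusted p = 0.461). The median log2 fold changes of these lists were 0.080, 0.37 and 0.045. None of the 10 genes tested in them was called by edgeR, with 31.7% called over all genes, and DESeq2 called 0 of them as well. With library size only RFC1 was called lower (−0.56, edgeR adjusted p = 0.0263). An unadjusted edgeR p of 0.05 or less was reached by 2 of the 10. These were NTHL1, a glycosylase for oxidised pyrimidines (0.68, edgeR adjusted p = 0.0951), and PARG, the enzyme that removes poly(ADP-ribose) (0.71, edgeR adjusted p = 0.0925). The share of all genes at that unadjusted level was not computed. It is at least the 31.7% called, since an adjusted p is never below the unadjusted p, so the 2 do not stand out.

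Among 12 other proteins reported to bind APE1, 9 genes were tested, 1 was called lower and 1 higher, against 31.7% called in either direction over all genes. NCL had 270, 259, 303 and 272 counts in siCTRL and 99, 110, 142 and 98 in siAPEX1. It fell to 87.8 ± 10.8 CPM from 138 ± 10.4 CPM (log2 fold change −0.65, standard error 0.105, edgeR adjusted p = 4.24e-06). TXN, the thioredoxin that works with APE1 in redox control of transcription factors, had 163, 165, 172 and 145 counts in siCTRL and 144, 120, 144 and 131 in siAPEX1. It rose from 80.5 ± 1.03 to 106 ± 8.96 CPM (0.40, standard error 0.103, edgeR adjusted p = 0.00251). The rise of TXN was lost with library size only (0.055, adjusted p = 0.708) and with no filter (0.30, adjusted p = 0.0729), and NCL was called lower under all 17 alternatives. RPLP0, the most abundant of the list, had a log2 fold change of −0.058 (edgeR adjusted p = 0.663), and with library size only it was called lower (−0.40, edgeR adjusted p = 0.000283). PRDX6, a peroxiredoxin, was at 30.7 ± 5.43 CPM in siCTRL and 23.6 ± 1.55 CPM in siAPEX1, with groups that did not overlap. It missed the threshold (−0.38, edgeR adjusted p = 0.0674, at an unadjusted edgeR p of 0.0232) and was called with no filter (−0.48, edgeR adjusted p = 0.0490). The median of the 9 was −0.058.

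Below the filter, MUTYH and NEIL3 were picked out after their values were seen. MUTYH, the glycosylase that removes adenine paired with oxidised guanine, had 9, 9, 9 and 7 counts in siCTRL and 1, 1, 1 and 0 in siAPEX1. Every siAPEX1 library was at or under the floor of 3 counts, hence at least 1.79-fold below the siCTRL mean. That bound makes no allowance for counting error in the siCTRL mean. MUTYH was called lower in the fit with no filter (edgeR adjusted p = 0.000824), of whose 22272 genes 8.21% were called. NEIL3, a glycosylase of replicating cells, had 0, 2, 0 and 0 counts in siCTRL and 3, 4, 4 and 4 in siAPEX1. Its groups did not overlap, and it was called higher with no filter (edgeR adjusted p = 0.00393), but no fold is given so near the floor. DESeq2 called neither MUTYH nor NEIL3.

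**Figure D4:**
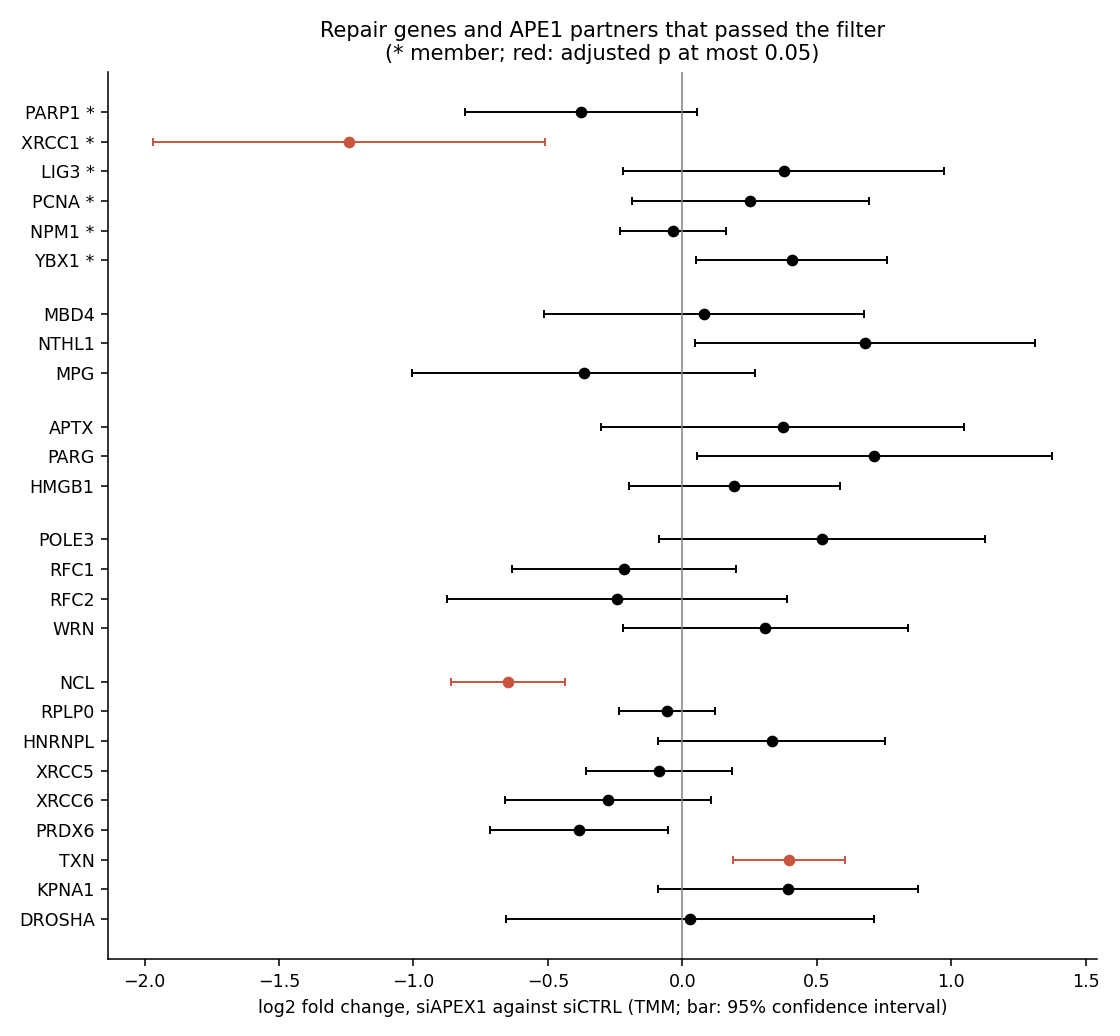
Points are the log2 fold changes of every listed repair gene and APE1 partner that passed the filter, siAPEX1 against siCTRL, with 95% confidence intervals as bars (an asterisk marks the 6 tested members; red, adjusted p at most 0.05). XRCC1 at −1.24, NCL at −0.65 and TXN at 0.40 were called, and the intervals of most other genes cross 0.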

How the data were processed

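RNA-seq was made by the authors with a ligation-free small RNA kit, changed so that longer primary transcripts are read too, as single-end reads. The deposited values are raw counts per gene: per the labels and the methods, the authors trimmed adapters and tails with cutadapt, aligned with STAR 2.5.3a to GRCh38 and counted with its GeneCounts function, which keeps uniquely mapped reads that overlap a single gene. The annotation release and the strand setting are not given in the sources used here. Of the 58302 identifiers, 57532 were in GENCODE 44, including all 10 members.

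The counts were tested with edgeR 4.0.16 in R 4.3.3 (glmQLFit and glmQLFTest, TMM factors, filterByExpr with its minimum count at 10 and its minimum total at 15), by group, with Benjamini-Hochberg adjustment over the 5368 genes kept. These held 97.5% to 98.1% of the counts. Members below the filter were compared in CPM by an exact permutation test over all 70 labelings, and their summed counts with a Clopper-Pearson interval. The Clopper-Pearson intervals and the floor of 3 counts cover counting error only, while the edgeR confidence intervals also take in the spread between libraries. No GEO sample was left out. The label of siCTRL replicate 3 and its column differ in a running number, and they were matched by group and replicate.

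Named genes are the 10 members, APEX1, and of each fixed list the genes called and the tested gene with the most counts. MUTYH, NEIL3, NTHL1, PARG and PRDX6 fall outside this rule and were named after their values were seen. Members and lists were chosen with earlier results of these data known. Alternatives were other scalings, APEX1 left out, DESeq2 1.42.0, other filters, a block for the replicate number, and leaving out each library in turn. The programs were tested on simulated data.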

Additional observations from a re-analysis of the deposited data

How the results depend on the processing

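Low counts set the limits here: 4 of the 10 members could not be tested, and a miss of the threshold does not show that a gene stayed the same. Over all genes 1703 were called (856 higher, 847 lower). DESeq2 called 902 (454 higher, 448 lower), and library size only 2285 (340 higher, 1945 lower). With no filter 1829 were called (703 higher, 1126 lower). Of the members 1 was called, against 3 with library size only, 2 with TMM factors from protein-coding genes, and 0 with DESeq2, without APEX1, or when 10 counts were asked of every library. XRCC1 was not tested under the last 2 settings. With each library left out in turn it was 0 to 1. The 1 was YBX1 rather than XRCC1 without siCTRL replicate 2 or 4, and XRCC1 was not tested without siCTRL replicate 1, 2 or 4. Of the other listed genes 2 were called, against 6 with library size only, 4 with no filter and 2 to 5 with each library left out. Directions turned for PCNA (−0.089), MBD4 (−0.26) and HMGB1 (−0.15) with library size only, for NPM1 with TMM factors from protein-coding genes (0.0088) and without siAPEX1 replicate 1 (0.029) or 4 (0.0011; −0.067 to 0.029 over the 8 fits that each leave out a library), and for MBD4 with no filter (−0.014) and without siCTRL replicate 3 (−0.14) or siAPEX1 replicate 4 (−0.035; −0.14 to 0.19 over the 8 fits). None of these values was called. Without siAPEX1 replicate 2, which stood apart from the other libraries, XRCC1 was still called (−1.20, adjusted p = 0.0223) and the other 5 tested members were not. Apart from the scaling, whose construction moves all genes together, and the filter, the cause of these shifts was not tested.

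Same-numbered libraries did not deviate together (correlations of −0.037 to −0.0035). The labels do not say whether the replicate numbers pair libraries, and at this depth such correlations cannot show that they do not. With the replicate number as a block 1595 genes were called in place of 1703 (806 higher, 789 lower), 1 member and 2 other listed genes, and XRCC1 stood at −1.23 (edgeR adjusted p = 0.0168).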
